A study of Homo sapiens with 6 samples.

Results

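Urothelial differentiation genes were followed in T24 cells with and without a knockdown of UBC9. Their rows were taken by gene symbol, and all 10 were found among the 58174 genes listed for each sample. They comprise 4 uroplakins (UPK1A, UPK1B, UPK2 and UPK3A), the keratin KRT20, and 5 transcription factors (GATA3, PPARG, FOXA1, ELF3 and GRHL3). They were picked by name and not by a threshold on their values, but with earlier results of these data known. Of the 10, PPARG, FOXA1 and GATA3 were expressed above the level needed for testing, and all 3 were lower in shRNA-UBC9 cells. PPARG and FOXA1 passed the threshold for a differentially expressed gene (DEG). UPK1A, UPK1B, UPK3A, KRT20 and GRHL3 were silent in both groups, and UPK2 and ELF3 were detected only at low levels.

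The urothelium is the layered epithelium that lines the bladder. Its outermost umbrella cells cover their surface with plaques of uroplakins, membrane proteins that make the bladder wall impermeable to urine, and they contain keratin 20. The nuclear receptor PPARG, the pioneer factor FOXA1 and the zinc finger factor GATA3 are known to act together on this luminal programme. ELF3, an ETS factor, and GRHL3, a Grainyhead factor, belong to the later steps of the same programme, and luminal bladder tumours retain much of it while basal ones lose it.

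T24 is an established cell line from a human bladder carcinoma. In the shRNA-NC group the cells carried a scrambled control shRNA, and in the shRNA-UBC9 group 1 shRNA against UBC9, the E2 enzyme that joins the SUMO protein to its targets. Both were delivered by lentivirus, and stable cells were obtained by puromycin selection. PolyA RNA of 3 samples in each group was sequenced, and the values are RPKM, read numbers divided by the length of the gene and by the size of the library. Levels of different genes can thus be compared only as far as the gene lengths used are right. The samples of a group were not stated to be separate infections, so their spread may be technical, and an effect of this shRNA on other targets cannot be told apart from its effect on UBC9.

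Fold changes throughout are log2 differences of RPKM + 0.1 between shRNA-UBC9 and shRNA-NC, which understates changes of low genes. The depth, estimated from the smallest steps of the values, was about 28100000 to 35900000 mapped reads per sample, and 18059 to 19725 genes were above 0. A DEG is a gene with an absolute log2 fold change above 1 and an adjusted p below 0.05 over 12428 tested genes, those that reached 0.5 RPKM in 3 or more samples.

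Libraries of both groups differed in transcripts of other tissues. The blood transcripts HBB, HBA2, S100A8 and S100A9 and the muscle transcripts ACTA1, CKM and MYL1 were all at 0 in shRNA-NC replicate 1 and shRNA-UBC9 replicate 3. All 7 were above 0 in the other 4 libraries, where they summed to 6.46 to 6.78 RPKM. Altogether 262 genes were at 0 in the former pair and above 0 in each of the latter 4 libraries. This difference crossed the groups, with 2 libraries carrying these transcripts in each. The differences of PPARG, FOXA1 and GATA3 and the values of ELF3 are therefore also given within each kind of library. The part of these transcripts in low values was not tested.

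**Figure D1:**
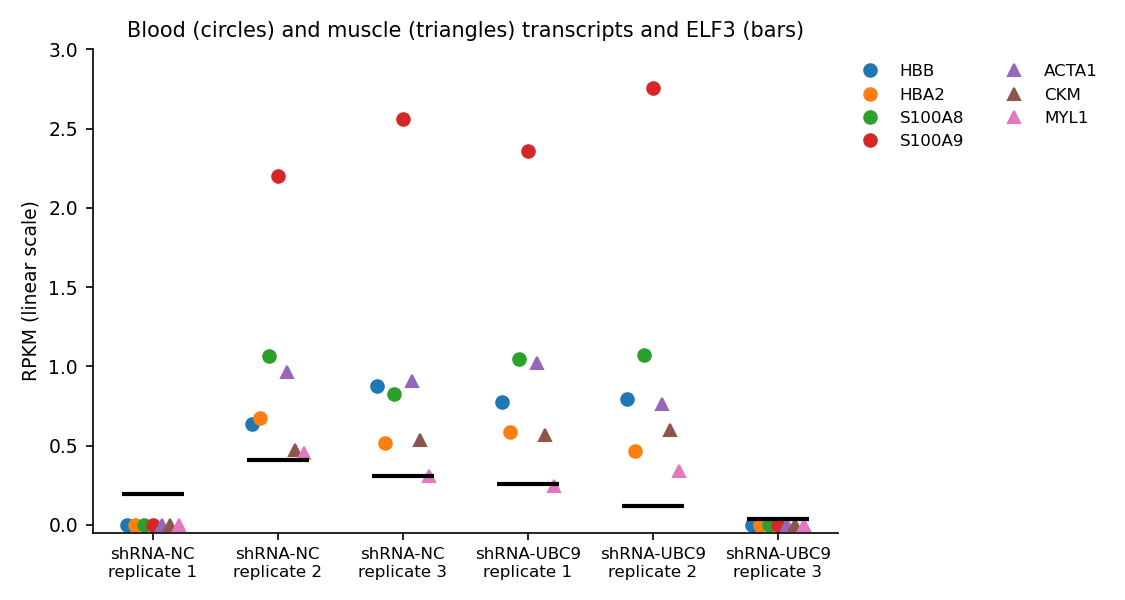
RPKM (vertical axis, linear) of 4 blood transcripts (circles), 3 muscle transcripts (triangles) and ELF3 (black bars) in each of the 6 libraries (horizontal axis). The 7 blood and muscle transcripts sit at 0 in shRNA-NC replicate 1 and shRNA-UBC9 replicate 3 and sum to 6.46 to 6.78 RPKM in the other 4, while ELF3 is above 0 in all 6.

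The genes of the 3 expressed factors and of KRT20 also differ in the sequence before their start. The 250 bases upstream are shown for FOXA1, GATA3 and PPARG, which are expressed here, and for KRT20, which was at 0 in every sample, each 5′ to 3′ on the strand of its gene with CpG dinucleotides in capitals. They come from the RefSeq promoter windows of GRCh38.p14, at the start nearest to that of the MANE Select transcript, and lie at chr14:37595250-37595499 (minus strand, FOXA1), chr10:8054438-8054687 (plus, GATA3), chr3:12288820-12289069 (plus, PPARG) and chr17:40885243-40885492 (minus, KRT20).
FOXA1: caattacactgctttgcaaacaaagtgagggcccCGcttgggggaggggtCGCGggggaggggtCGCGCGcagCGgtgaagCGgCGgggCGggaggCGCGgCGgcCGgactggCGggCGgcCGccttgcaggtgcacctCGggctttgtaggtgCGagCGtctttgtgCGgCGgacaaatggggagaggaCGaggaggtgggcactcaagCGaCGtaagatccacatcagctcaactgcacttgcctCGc
GATA3: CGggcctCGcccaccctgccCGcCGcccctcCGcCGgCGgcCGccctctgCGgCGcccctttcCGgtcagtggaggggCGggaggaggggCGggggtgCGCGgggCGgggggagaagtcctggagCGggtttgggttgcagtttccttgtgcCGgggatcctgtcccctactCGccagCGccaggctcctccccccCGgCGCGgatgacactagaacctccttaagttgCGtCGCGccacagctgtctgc
PPARG: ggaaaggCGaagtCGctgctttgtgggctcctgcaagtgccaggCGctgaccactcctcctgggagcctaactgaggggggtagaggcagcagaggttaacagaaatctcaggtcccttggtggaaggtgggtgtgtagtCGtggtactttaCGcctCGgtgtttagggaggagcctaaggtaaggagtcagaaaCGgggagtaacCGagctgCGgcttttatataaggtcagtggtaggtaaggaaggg
KRT20: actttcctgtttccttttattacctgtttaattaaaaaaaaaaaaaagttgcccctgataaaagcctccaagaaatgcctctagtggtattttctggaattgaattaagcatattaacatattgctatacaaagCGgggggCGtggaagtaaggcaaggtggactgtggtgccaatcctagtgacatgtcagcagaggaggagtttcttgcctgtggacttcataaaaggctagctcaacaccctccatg
These stretches hold 26 CpG in FOXA1, 26 in GATA3, 9 in PPARG and 2 in KRT20. Over the full window of 300 bases, which adds 50 bases after the start, the counts were 34, 29, 9 and 2, beside a median of 15 over 27305 promoters. FOXA1 thus exceeded 83.7% of promoters and GATA3 74.5%, whereas PPARG exceeded 41.1% and KRT20 only 11.3%. The windows of the other members matched held 11 CpG in UPK1B, 7 in ELF3, 7 in GRHL3 and 4 in UPK1A, all under that median. UPK2 and UPK3A had no window. PPARG and GATA3 each have 6 listed windows, and which starts T24 cells use was not measured. Over these 6, CpG counts ranged from 1 to 10 in PPARG, below that median in each, and from 5 to 36 in GATA3. PPARG, at 9 CpG, had fewer than the silent UPK1B at 11.

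The windows of the 8 members were searched on both strands for the core letters of factors among the members. AGGTCA, the half-site of nuclear receptors such as PPARG, occurred in the PPARG window, and in 13.7% of all promoters. AGATAA, the core read by zinc finger factors like GATA3, occurred at 2 places in GRHL3 and in 10.3% of promoters. TATAAA was found in UPK1A, PPARG and ELF3, against 11.9% of promoters, and in PPARG it shared no base with the AGGTCA match. For forkhead factors TGTTTAC, for ETS factors CCGGAAG and for Grainyhead factors AACCNGTT were searched without a match in any member, with 3.34%, 10.9% and 1.67% of promoters holding them. These matches describe letters and not binding.

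PPARG, a ligand-activated nuclear receptor and master regulator of fat storage that also drives urothelial maturation, showed the largest change of the members. Its gene lies at chr3:12287368-12434356 on the plus strand. The shRNA-NC samples were listed at 14.5, 17.5 and 20.6 RPKM, and the shRNA-UBC9 samples at 6.83, 2.49 and 3.32 RPKM. Every shRNA-UBC9 sample lay below every shRNA-NC sample, with replicate 1 the highest of the knockdown. Mean levels were 17.5 ± 3.04 RPKM in the controls and 4.21 ± 2.31 RPKM in the knockdown (SD, n = 3 each). PPARG fell by 2.15 on the log2 scale (SE 0.32, 95% interval -2.88 to -1.41, limma adjusted p = 0.00169), the 39th lowest fold change of the 12428 tested genes. In reads, this was 1756, 2447 and 2823 against 997, 355 and 379, so counting error is small beside the spread of the samples. Within the pair of libraries without blood and muscle transcripts the difference was -2.10, and within the 4 with them it was -2.17.

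FOXA1 opens closed chromatin for nuclear receptors and is a mark of luminal identity. The gene is on the minus strand at chr14:37589552-37596059. Its level was 12.0, 10.5 and 12.1 RPKM in shRNA-NC and 4.32, 6.23 and 5.80 RPKM in shRNA-UBC9, again without overlap. Controls averaged 11.5 ± 0.879 RPKM and knockdown samples 5.45 ± 1.003 RPKM (SD, n = 3 each). FOXA1 fell by 1.08 (SE 0.14, 95% interval -1.41 to -0.76, limma adjusted p = 0.000951), close to the fold threshold. Without shRNA-UBC9 replicate 1, the lowest of its group, the fold change was -0.92 (adjusted p = 0.00057), so the adjusted p held and the fold did not. Within the libraries without and with blood and muscle transcripts the difference was -1.03 and -1.11. An exon of TTC6 on the other strand overlaps FOXA1, but TTC6 averaged 0.161 RPKM over the 6 samples.

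GATA3, a zinc finger factor of luminal epithelia and of T cells, was lower in the knockdown by a smaller step. It lies at chr10:8045378-8075198, plus strand. The shRNA-NC samples were listed at 8.38, 5.23 and 9.36 RPKM and the shRNA-UBC9 samples at 4.15, 3.96 and 4.66 RPKM. The groups did not overlap, but shRNA-NC replicate 2 was closer to the knockdown than to its own group. The averages were 7.66 ± 2.16 RPKM for the controls and 4.26 ± 0.363 RPKM for the knockdown (SD, n = 3 each). The log2 fold change of -0.79 (SE 0.20, 95% interval -1.25 to -0.34) had a limma adjusted p of 0.0160 but stayed short of the fold threshold, so GATA3 was not called. This call turned on 1 library. Without shRNA-NC replicate 2 the fold change was -1.04 (adjusted p = 0.00125) and GATA3 was called, whereas without shRNA-NC replicate 1 or replicate 3 the adjusted p was 0.0609 or 0.0567. Within the libraries without and with blood and muscle transcripts the difference was -0.83 and -0.77, and in a limma fit of the 4 libraries with them the adjusted p was 0.0878.

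**Figure D2:**
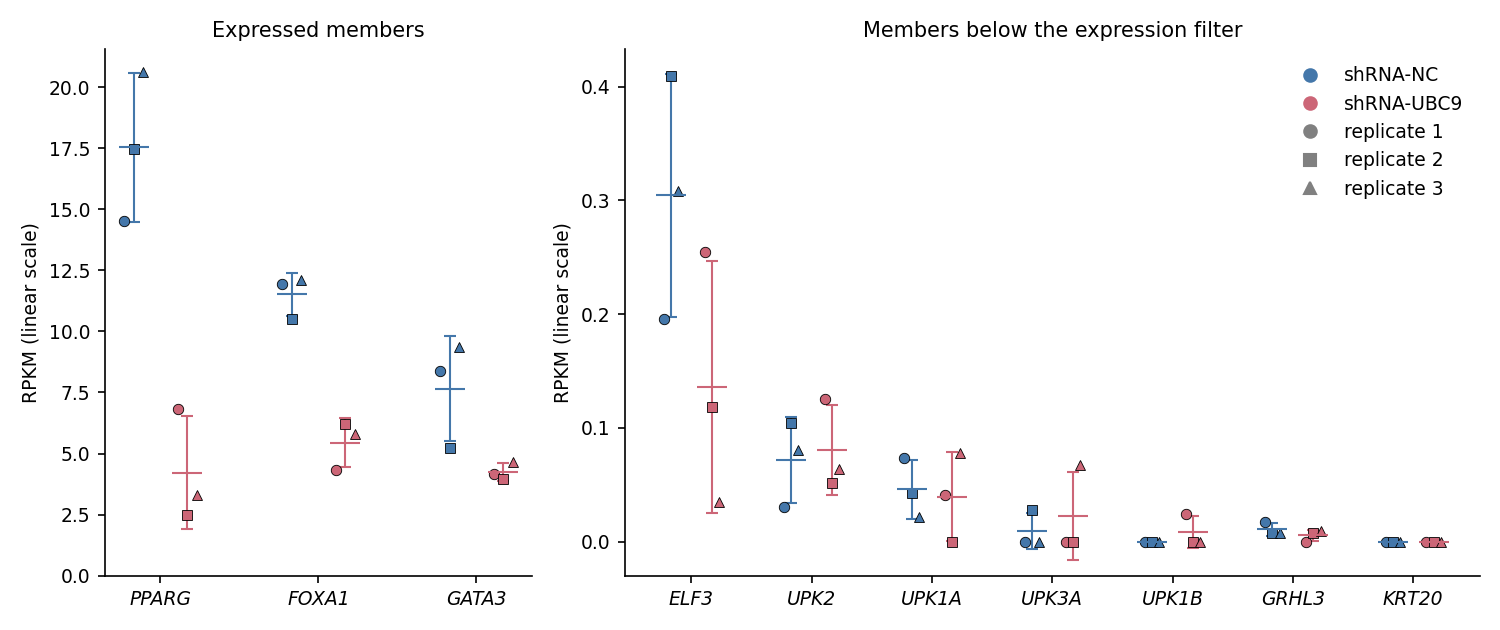
RPKM (vertical axes, linear, with different ranges in the panels) of the 3 expressed members (left) and the 7 members below the expression filter (right) in shRNA-NC (blue) and shRNA-UBC9 (red) samples. Symbols give replicates 1 to 3, horizontal bars the mean and whiskers the SD over 3 samples. PPARG, FOXA1 and GATA3 show no overlap between the groups, while none of the 7 low members reaches 0.5 RPKM.

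Of the 10 members, 2 were called and both were lower, beside 2.7% of all tested genes called in that direction, 5.2% called higher and 7.89% called in either. With only 3 members tested, these counts are no more than a description of PPARG, FOXA1 and GATA3. All 3 had groups that did not overlap with the lower values in shRNA-UBC9, a pattern of 25.4% of the tested genes. All 3 also passed an adjusted p of 0.05 with a lower level, as did 18% of the tested genes at any fold (36.8% in either direction). Their exact two-sided permutation p was 0.1 each, the smallest that 3 samples against 3 allow. The median log2 fold change was -1.08 over these 3 genes and 0.005 over all tested genes. Because the RNA is from whole cultures, fewer cells that express a gene and less of its RNA per cell cannot be told apart.

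**Figure D3:**
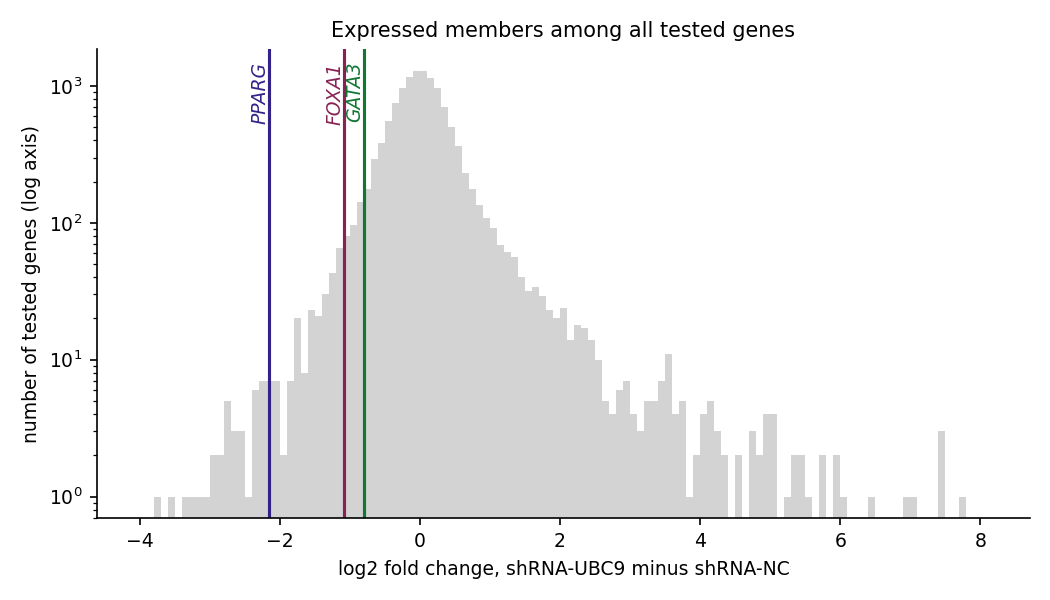
Number of tested genes (vertical axis, log scale) by log2 fold change of shRNA-UBC9 minus shRNA-NC (horizontal axis), with vertical lines at PPARG, FOXA1 and GATA3. The lines stand at -2.15, -1.08 and -0.79, on the lower side of a distribution whose median is 0.005.

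The order of the 3 factors by mean RPKM changed between the groups, but not in every knockdown sample. In shRNA-NC cells PPARG had the highest RPKM, FOXA1 the next and GATA3 the lowest, and no sample of one overlapped with the next. In shRNA-UBC9 cells FOXA1 had the highest mean (5.45 RPKM), followed by GATA3 (4.26 RPKM) and PPARG (4.21 RPKM), and these neighbours overlapped. Replicate 1 of the knockdown kept the order of the controls, with PPARG at 6.83, FOXA1 at 4.32 and GATA3 at 4.15 RPKM. Expressed as the share of tested genes with a lower mean, PPARG went from 80.1% to 38.6%, FOXA1 from 69.9% to 46.6% and GATA3 from 57.5% to 38.9%. This order and these shares rest on the gene lengths used for RPKM. The steps of the values imply about 4069 bases for PPARG, whereas its exons in GENCODE release 44 span 11981. For FOXA1 the lengths were 4004 and 4414, and for GATA3 3271 and 3396. With another length PPARG could rank differently among the 3. The ratio of PPARG to GATA3 within a sample was 1.73, 3.34 and 2.20 in shRNA-NC and 1.65, 0.629 and 0.712 in shRNA-UBC9. These ratios did not overlap, although shRNA-UBC9 replicate 1 came close to shRNA-NC replicate 1 (exact permutation p = 0.1). The ratio of PPARG to FOXA1 was 1.22, 1.66 and 1.70 in shRNA-NC against 1.58, 0.400 and 0.572 in shRNA-UBC9, so shRNA-UBC9 replicate 1 lay among the controls (exact permutation p = 0.2). FOXA1 to GATA3 ratios overlapped as well, at 1.43, 2.01 and 1.29 against 1.04, 1.57 and 1.24 (exact permutation p = 0.4). In the knockdown, replicate 1 therefore kept the most PPARG and the least FOXA1 of its group.

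The tested genes with profiles nearest to each called member were found by the Euclidean distance of log2 values over the 6 samples, each gene centred on its own mean. For PPARG these were DENND2A (distance 0.466), C5orf46 (0.682) and INPP4B (0.687). For FOXA1 they were PRR16 (0.190), MECOM (0.194) and NT5DC3 (0.213). Other members were farther away, with FOXA1 at 1.97 and GATA3 at 2.07 from PPARG, and FOXA1 at 0.716 from GATA3. This distance is not scaled, so it also grows with a difference in the size of the fold change.

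ELF3, the ETS factor, was the highest of the 7 members that did not reach the filter. Its gene lies at chr1:202007945-202017183, plus strand. The values were 0.196, 0.410 and 0.308 RPKM in shRNA-NC and 0.255, 0.118 and 0.0345 RPKM in shRNA-UBC9, from 42, 102 and 75 reads against 66, 30 and 7 reads. The lowest sample was in the knockdown and the highest among the controls, but the groups overlapped, with shRNA-UBC9 replicate 1 above shRNA-NC replicate 1. Of this pair, only the former carried blood and muscle transcripts. In the libraries without them ELF3 was at 0.196 RPKM in shRNA-NC and 0.0345 RPKM in shRNA-UBC9. In those with them it was at 0.410 and 0.308 against 0.255 and 0.118 RPKM, without overlap. The part of these transcripts in the ELF3 values was not tested. In a fit with no filter the log2 fold change was -0.85 (SE 0.39, limma adjusted p = 0.198), so no difference was shown. The antisense gene ELF3-AS1, at 0.1996 RPKM on average, shares exon sequence with ELF3, and since the counting was not stated to use strand, their reads cannot be told apart at this level.

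UPK2, a small uroplakin that pairs with UPK1A (chr11:118925164-118958559, plus strand), was the uroplakin with the most reads. It was listed at 0.0303, 0.104 and 0.0802 RPKM in shRNA-NC and at 0.125, 0.0513 and 0.0641 RPKM in shRNA-UBC9. A gene was taken as silent in a group when each of its 3 samples was under 0.1 RPKM, and UPK2 exceeded this in 1 sample of each group. The values rest on 1, 4 and 3 reads against 5, 2 and 2 reads. After scaling for depth the ratio of shRNA-UBC9 to shRNA-NC was 1.11, with a 95% interval of 0.381 to 3.31 that covers counting error only. BCL9L on the opposite strand shares exon sequence with UPK2 and averaged 12.7 RPKM, so the reads of the pair cannot be told apart here.

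The other uroplakins were silent in both groups. UPK1A (chr19:35666517-35678481, plus strand), a tetraspanin that carries UPK2 to the surface, was listed at 0.0736, 0.0423 and 0.0216 RPKM in shRNA-NC and at 0.0406, 0 and 0.0778 RPKM in shRNA-UBC9. That is 6 reads in the 3 control samples and 5 in the 3 knockdown samples, a depth-scaled ratio of 0.823 (95% interval 0.199 to 3.24), and UPK1A-AS1 shares exon sequence with it. UPK1B (chr3:119173517-119205143, plus strand), the tetraspanin partner of UPK3A, was at 0 in 5 samples and at 0.0245 RPKM in shRNA-UBC9 replicate 1. UPK3A (chr22:45284949-45295874, plus strand) was above 0 in shRNA-NC replicate 2 at 0.0275 RPKM, from 1 read, and in shRNA-UBC9 replicate 3 at 0.0674 RPKM, from 2 reads. Its ratio had an interval of 0.103 to 116.6, so these libraries can neither show nor limit a difference of UPK3A. Neither membrane complex, UPK1A with UPK2 or UPK1B with UPK3A, had both partners above 0.1 RPKM in any sample.

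KRT20, the keratin of umbrella cells (chr17:40875889-40885242, minus strand), was the only member at 0 in every sample. A count of 0 allows up to 3 reads, which corresponds to 0.0437 to 0.0558 RPKM across the samples, and the 6 libraries together held an estimated 196800000 mapped reads. GRHL3, the Grainyhead factor (chr1:24199558-24364482, plus strand), was listed at 0.0170, 0.00733 and 0.00750 RPKM in shRNA-NC and at 0, 0.00720 and 0.00899 RPKM in shRNA-UBC9. This is 2, 1 and 1 reads against 0, 1 and 1 reads, with a ratio of 0.494 (95% interval 0.0447 to 3.45). The count of silent members was 5 at the limit of 0.1 RPKM, 7 with a limit of 0.5 RPKM and 1 with a limit of 0. For none of these genes could a difference between the groups be detected at this depth.

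The label of the cells was set against marker lists. Simple epithelial keratins were abundant, with KRT7, KRT8, KRT18 and KRT19 at 19.3 RPKM or more in every sample, while CDH1 reached 0.00449 RPKM in 1 sample and was at 0 in the others. The basal markers KRT5 (0 in all samples), KRT14 (at most 0.0124 RPKM) and TP63 (at most 0.00449 RPKM) were silent, and CD44 averaged 71.3 RPKM in shRNA-NC. The mesenchymal genes VIM and FN1 averaged 468 and 591 RPKM in shRNA-NC. T24 cells of both groups thus expressed PPARG, FOXA1 and GATA3 beside mesenchymal genes, with KRT20, CDH1 (E-cadherin) and the uroplakins at or near 0.

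Other genes of the programme were followed in lists written with results of these data known. Luminal surface and junction genes had 8 of 21 members tested, of which 2 were called, both lower. With no filter on low values 5 were called, 3 lower (KRT7, PSCA and ERBB3) and 2 higher (S100P and ST14, neither above 0.268 RPKM in any sample). KRT7, a keratin of simple and urothelial epithelia, was listed at 627, 510 and 530 RPKM in shRNA-NC and at 216, 273 and 286 RPKM in shRNA-UBC9, and fell by 1.11 (SE 0.13, limma adjusted p = 0.000578). Without shRNA-UBC9 replicate 1 its fold change was -0.98 and the call was lost, as for FOXA1. PSCA, a surface antigen of urothelium and prostate, was listed at 1.01, 1.16 and 0.654 RPKM against 0.189, 0.225 and 0.322 RPKM with a log2 fold change of -1.58. It reached the filter only through the shRNA-NC samples, where it was high, so its call in the filtered fit is no support, and with no filter its limma adjusted p was 0.0107. With a pseudocount of 0.5 or 1 the fold change was -0.94 or -0.63 and PSCA was not called. KRT18 (-0.93), KRT8 (-0.81) and KRT19 (-0.99) were lower with adjusted p-values of 0.000959, 0.00420 and 0.00698 and stayed short of the fold threshold. KRT19 was called without shRNA-NC replicate 2 (-1.19) or shRNA-UBC9 replicate 1 (-1.17), and KRT18 without shRNA-UBC9 replicate 3 (-1.03) or in the 4 libraries with blood and muscle transcripts (-1.004). Median scaling (-1.03) and quantile normalization (-1.01) also put KRT19 past the fold threshold. The list held 4 called genes without shRNA-UBC9 replicate 3, and 1 without shRNA-NC replicate 1 or 3. PSCA was not tested in fits without a shRNA-NC replicate, since it then reached 0.5 RPKM in too few samples. Of the 8 tested genes 6 were lower, while EPCAM and ESRP2 were higher without being called. EPCAM was listed at 0.412, 0.986 and 0.575 RPKM in shRNA-NC and at 2.51, 1.27 and 0.732 RPKM in shRNA-UBC9. Its log2 fold change was 0.996 (limma adjusted p = 0.0984), and that of ESRP2 was 0.196 (limma adjusted p = 0.585). The median of the 8 was -0.87, and -0.81 without PSCA, beside 0.005 for all tested genes.

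Among 24 further epithelial and luminal transcription regulators, 15 were tested and 2 were called, TFAP2A lower and EHF higher. TFAP2A, an AP-2 factor of early epithelia, was listed at 3.28, 3.49 and 3.62 RPKM in shRNA-NC and at 0.999, 1.21 and 1.41 RPKM in shRNA-UBC9, and fell by 1.46 (SE 0.14, limma adjusted p = 0.000244). EHF, an epithelial ETS factor related to ELF3, was listed at 0.0229, 0.145 and 0.0943 RPKM against 5.03, 1.04 and 0.929 RPKM, with a log2 fold change of 3.33. EHF was near silent in the controls and highest in shRNA-UBC9 replicate 1. It reached the filter only through the shRNA-UBC9 samples, where it was high, so its call in the filtered fit is no support, and with no filter its limma adjusted p was 0.0161. With a pseudocount of 0.5 or 1 its fold change was 1.97 or 1.402. KLF5 and TBX3, the most abundant of the list by the mean of all 6 samples, had fold changes of 0.54 and 0.95 (adjusted p = 0.00374 and 0.00143) and were not called, although TBX3 reached 1.11 and was called without shRNA-NC replicate 2. In shRNA-NC alone TBX3 averaged 7.14 RPKM, below RXRB at 11.0 and RXRA at 9.90 RPKM. The list had 6 genes higher, EHF among them, and 1 lower at an adjusted p below 0.05. Over all 12428 tested genes 2339 were higher and 2237 lower at that limit. The median of the list was 0.39 (0.33 without EHF), while PPARG, FOXA1 and GATA3 were lower. RXRA, the partner with which PPARG binds DNA, was looked up after its values were seen, and was at 10.9, 9.43 and 9.37 RPKM in shRNA-NC and 12.4, 8.71 and 10.1 RPKM in shRNA-UBC9 (0.06, adjusted p = 0.761).

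Genes known as targets of PPARG in fat and liver were called only in the direction opposite to PPARG. Of 12 listed, 6 were tested, and 2 were called, both higher. ANGPTL4, a secreted inhibitor of lipoprotein lipase, was listed at 0.607, 0.872 and 1.69 RPKM in shRNA-NC and at 142, 26.9 and 24.3 RPKM in shRNA-UBC9, and rose by 5.40 (SE 0.64, limma adjusted p = 0.000602). PLIN2, a coat protein of lipid droplets, was at 2.91, 3.60 and 3.03 RPKM against 30.1, 9.84 and 5.69 RPKM and rose by 1.88 (adjusted p = 0.0197). This call was lost without shRNA-NC replicate 1 (adjusted p = 0.0646) or replicate 3 (adjusted p = 0.0586) and with no filter (adjusted p = 0.0610). Without shRNA-UBC9 replicate 1 the fold change was 1.22 (adjusted p = 0.00434). Both were highest in shRNA-UBC9 replicate 1, the library with the most PPARG of its group. FABP4, a fatty acid carrier, was listed at 6.24, 3.99 and 7.81 RPKM against 3.56, 14.8 and 14.3 RPKM, with a log2 fold change of 0.64 and an adjusted p of 0.353. CPT1A, the gatekeeper of fatty acid entry into mitochondria, had a fold change of 0.91 (adjusted p = 0.00229) and was called only without shRNA-NC replicate 3 (1.02), among the samples left out in turn. The median of the 6 tested targets was 0.78.

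Genes that assemble and transport uroplakin plaques had 3 of 7 members tested and none called. RAB11A and RAB8A, small GTPases of vesicle traffic that most cells use, had log2 fold changes of 0.25 and -0.07 (limma adjusted p = 0.103 and 0.540). The basal urothelial genes had 7 of 14 tested, with 1 called higher and 2 lower. COL17A1, a hemidesmosome collagen, was listed at 0.631, 0.400 and 0.543 RPKM in shRNA-NC and at 2.20, 2.31 and 2.33 RPKM in shRNA-UBC9 and rose by 1.95 (SE 0.17, adjusted p = 0.000169), or 1.11 with a pseudocount of 1. ITGB4, the integrin of the same junction, was at 1.71, 0.999 and 3.26 RPKM against 0.185, 0.189 and 0.204 RPKM with a log2 fold change of -2.69. It too reached the filter only through the shRNA-NC samples, where it was high, so its call in the filtered fit is no support, and with no filter its limma adjusted p was 0.00651. With a pseudocount of 0.5 or 1 its fold change was -1.74 or -1.26. KRT17, a keratin of basal and stressed epithelia, fell by 1.47 (adjusted p = 0.0172), a call that was lost with a pseudocount of 1 (-0.83) and with no filter (adjusted p = 0.0542). The genes CD44 and ITGA6, the most abundant of this list, had fold changes of 0.51 and -0.21 (adjusted p = 0.0160 and 0.428). The basal list thus held changes in both directions, with a median of -0.44 over its 7 tested genes (-0.32 without ITGB4).

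**Figure D4:**
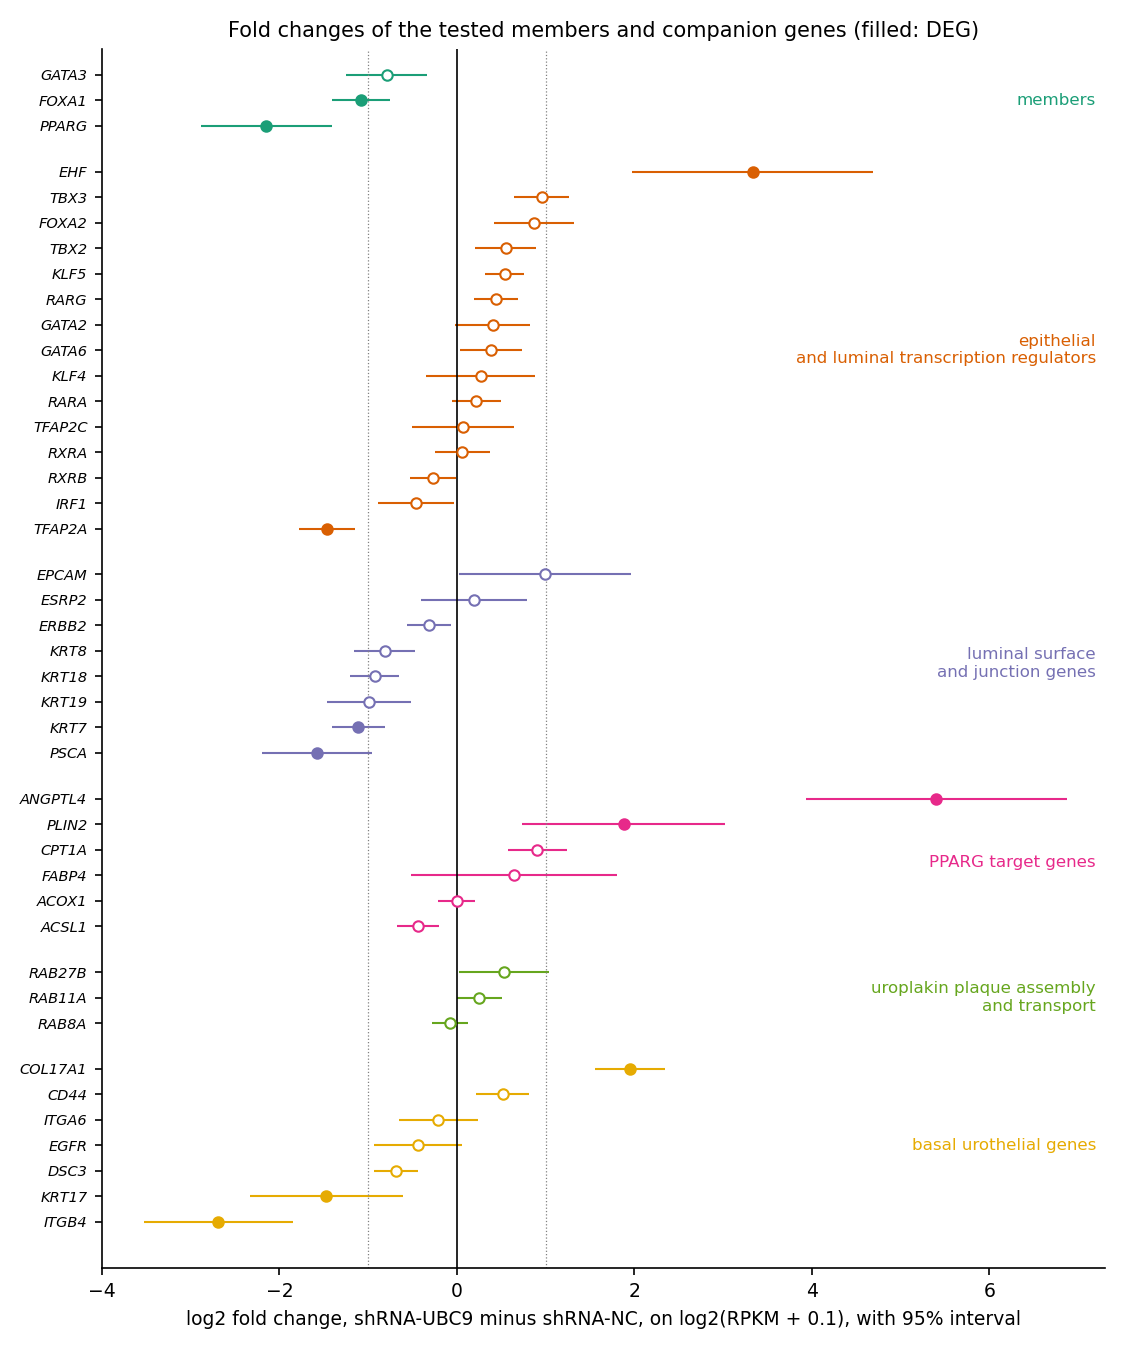
Log2 fold change of shRNA-UBC9 minus shRNA-NC (horizontal axis, on log2(RPKM + 0.1), points with 95% intervals from limma) for the tested members and the tested genes of 5 companion lists (rows, coloured by list). Filled points are DEGs and dotted lines mark the fold threshold of 1 in each direction. The 3 members lie at -2.15, -1.08 and -0.79, the PPARG target ANGPTL4 at 5.40, and regulators such as EHF (3.33) and TFAP2A (-1.46) on opposite sides.

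Mesenchymal genes and markers of other cell types were followed as well. No mesenchymal gene was called of 7 tested of 8, with VIM and FN1 at -0.38 and -0.30 (limma adjusted p = 0.122 and 0.519). SNAI2, a repressor of epithelial genes, averaged 8.50 RPKM in shRNA-NC and 15.1 RPKM in shRNA-UBC9 (0.82, adjusted p = 0.000778), and ZEB2, a repressor of the same kind, 0.843 and 1.33 RPKM (0.59, adjusted p = 0.0298). At an adjusted p below 0.05 the list thus had 2 genes higher and 0 lower, beside 2339 higher and 2237 lower of all 12428 tested genes. The absence of lower genes rests on 1 library. Without shRNA-UBC9 replicate 1, VIM was at -0.58 (limma adjusted p = 0.00836) and FN1 at -0.71 (limma adjusted p = 0.0321). The fibroblast markers DCN, LUM and PDGFRA were silent in both groups, summing to at most 0.0987 RPKM in a sample. Of 5 leukocyte markers, PTPRC, CD3E and LYZ were at 0 in shRNA-NC replicate 1 and shRNA-UBC9 replicate 3, the libraries without blood and muscle transcripts, and LYZ had a fold change of 0.31 (adjusted p = 0.822). CD68, a lysosomal protein of macrophages and other cells, was listed at 3.24, 1.53 and 3.17 RPKM in shRNA-NC and at 18.6, 48.4 and 29.4 RPKM in shRNA-UBC9 and rose by 3.52 (adjusted p = 0.000376). It made up most of the summed leukocyte list, 2.21 to 3.94 RPKM in shRNA-NC and 19.7 to 49.2 RPKM in shRNA-UBC9. Of the 3 endothelial markers 1 was tested, CDH5, the cadherin of endothelial junctions, which fell by 2.20 (adjusted p = 0.00288), or by 1.28 with a pseudocount of 1. The part of these cell type markers in the lower PPARG, FOXA1 and GATA3 was not tested.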

How the data were processed

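PolyA RNA of T24 cells was sequenced in 3 shRNA-NC and 3 shRNA-UBC9 samples, grouped by their labels. After trimming, the authors aligned the reads to GRCh38 in the CLC Biomedical Genomics Workbench at default settings, and they deposited RPKM values per gene. The annotation release, strand setting and treatment of multi-mapped reads are not given in the sources used here.

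RPKM are not counts, so limma 3.58.1 in R 4.3.3 (lmFit, eBayes with trend) was run on log2(RPKM + 0.1) for the 12428 genes that reached 0.5 RPKM in 3 or more samples, with Benjamini-Hochberg adjustment over all of them. Whole reads were recovered from the steps of the values, and 97.9% of 1500 genes drawn came out whole within 0.02 reads. Absolute depth was estimated with exon lengths of GENCODE release 44, which also gave gene coordinates and overlaps. Read intervals and limits cover counting error only.

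The members and lists were chosen with earlier results of these data known. Named genes were all members, up to 4 called genes with the largest change and the 2 most abundant of each list, and the 3 nearest profiles of each called member. KRT8, KRT19, KRT5, KRT14, TP63, CDH1, the other cell type markers, FABP4, RXRA, RXRB, ERBB3, S100P, ST14, EPCAM, ESRP2, SNAI2, ZEB2 and the blood and muscle transcripts were added outside that rule, some after their values were seen. The level of the targeted gene is not reported here. Scripts were tested on simulated data. Alternatives were other pseudocounts, filters, scalings and thresholds, no trend, a replicate block, leaving out each sample, and, chosen after seeing the data, fits on or with a term for the 4 libraries with blood and muscle transcripts. Other calculations used Python 3.11.15, numpy 2.4.6, pandas 2.3.3, scipy 1.17.1 and matplotlib 3.10.9.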

Additional observations from a re-analysis of the deposited data

How the results depend on the processing

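The lower PPARG was called under every alternative run, with PPARG between -2.55 and -1.84 when a sample was left out, and GATA3 and FOXA1 kept a lower level under all of them. With a pseudocount of 1, 552 genes were called (391 higher, 161 lower), FOXA1 reached -0.97 and 1 member was called, and with a pseudocount of 0.5 there were 222 lower genes, against 981 called (646 higher, 335 lower) in the analysis reported. With the adjusted p and no fold threshold there were 4576 genes (2339 higher, 2237 lower), 3 members and 25 genes of the companion lists against 11. The count of silent members was 1 with a limit of 0. Leaving out a sample gave 1 to 3 called members, GATA3 at -1.04 to -0.63 (called without shRNA-NC replicate 2) and FOXA1 at -1.18 to -0.92 (not called without shRNA-UBC9 replicate 1). The sign turned for 5 genes that were not called, over ranges of -0.53 (without shRNA-NC replicate 1) to 1.30 for LYZ, -0.12 to 0.038 (without shRNA-NC replicate 3) for ZEB1, -0.073 (without shRNA-UBC9 replicate 1) to 0.18 for RXRA, -0.41 to 0.015 (without shRNA-UBC9 replicate 1) for ITGA6 and -0.71 to 0.054 (without shRNA-UBC9 replicate 2) for FN1. The cause was not tested. In the 4 libraries with blood and muscle transcripts, 1056 genes were called (685 higher, 371 lower), and with a term for these libraries 978. Samples with the same replicate number did not deviate together (correlations -0.37, 0.07 and -0.17). The highest correlation, 0.53, was between shRNA-NC replicate 1 and shRNA-UBC9 replicate 3, the libraries without blood and muscle transcripts. Deviations from means of 3 samples cannot exclude that the numbers pair the samples. A limma fit with the replicate block called 974 genes and the same number of members, with GATA3 at an adjusted p of 0.0126. Median scaling called 604 higher and 366 lower genes and quantile normalization 573 and 408. Levels under 0.1 RPKM rest on a few reads each, and differences there were not detectable.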
